A study of Homo sapiens with 2 samples.

Results

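The Notch genes followed here are the receptors NOTCH1, NOTCH2, NOTCH3 and NOTCH4, the ligands JAG1, JAG2, DLL1, DLL3 and DLL4, and the target gene HES1. They were chosen by name, and 9 of these 10 genes have a row in the deposited table, which holds 21382 genes after loci of one symbol were summed. NOTCH4 was not analysed here. RNA-Seq was performed on total RNA of MDA PCa 2b cells and of RC77 T/E cells, both established human prostate cancer (PCa) cell lines and both untreated, with 1 library each. MDA PCa 2b cells were kept in a serum-containing F-12 medium with added cholera toxin, hormones and growth factor, and RC77 T/E cells in serum-free keratinocyte medium with pituitary extract and growth factor, so effects of the cell line and of its medium cannot be told apart. The study listed Notch and its Delta-like ligands among the candidate pairs by which platelets and PCa cells may signal to each other, with the ligands on the PCa side.

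Notch is a receptor that is read out by being cut. A ligand of the Jagged or Delta-like family on one cell pulls on the receptor of its neighbor, an ADAM protease removes the outer part, and gamma-secretase then frees the intracellular domain. That domain enters the nucleus, joins the DNA-binding protein RBPJ and a Mastermind-like coactivator, and switches on genes such as HES1, whose product is itself a repressor of transcription. In layered epithelia such as the prostate, Notch signaling takes part in the choice between the basal and the luminal fate.

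Expression was deposited as TPM, a transcript share that accounts for gene length and for library size. TPM keeps no read number, so depth is unknown for both libraries and counting intervals are not given. With 1 library per cell line no value has a replicate error, no test was made, and each difference below is a difference between 2 libraries. In the table, values of 1 TPM and above with 3 or more decimals had lost their decimal mark, and it was put back where the authors' mean and standard error of the same row allowed it. For NOTCH2, JAG2, DLL1, DLL3, DLL4 and HES1 this left 1 pair of values. For NOTCH1, NOTCH3 and JAG1 it left 2 or 3 pairs that differ by factors of 10, and all of them are given; the ratio between the cell lines is the same for each pair.

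The promoter of HES1 is shown because HES1 is the target gene of the set. The RBPJ core motif was searched as GTGGGAA or GTGAGAA on both strands, in the 250 bases before the RefSeq start of each gene, on GRCh38.p14. In the HES1 sequence, on the plus strand at chr3:194135898-194136147, the capitals mark its 1 match, which lies 85 to 79 bases before the start.
HES1: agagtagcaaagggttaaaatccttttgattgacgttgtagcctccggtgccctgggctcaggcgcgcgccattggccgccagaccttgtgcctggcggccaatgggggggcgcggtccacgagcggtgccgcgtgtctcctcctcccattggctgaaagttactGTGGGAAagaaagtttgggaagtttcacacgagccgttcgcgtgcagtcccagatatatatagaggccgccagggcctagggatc
The same search found matches in 4 of the 8 promoters available for the other HES, HEY and NRARP genes. Their windows are set below one another, each on the strand of its gene, so that the shared letters can be read against those of HES1. TTCCCAC is GTGGGAA on the other strand. The match of HES4 lies 77 to 71 bases before the start, and the near match of HES5 81 to 75 bases before it.
HES4 (chr1:1000158-1000184, minus strand): tggggcgagtGTGGGAAagaatgcgga
HES5, near (chr1:2530328-2530354, minus strand): gccgcggagtGTGGGAAcggccgcggc
HES5, far (chr1:2530471-2530497, minus strand): ggcgagcgcgTTCCCACagcccggaca
HEY2 (chr6:125749409-125749435, plus strand): cgcggccgcgTTCCCACgcctcggctg
HEYL (chr1:39639805-39639831, minus strand): gcctagggccTTCCCACggctcggcgg
No match was found before the starts of HES2, HES6, HES7 and NRARP, or before those of NOTCH1, NOTCH2, NOTCH3, JAG1, JAG2 and DLL4. Over all 35116 promoters of the table, 8.77% held a match. A match is a description of the letters only. Other forms of the motif, and sites outside these windows, were not searched.

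All 3 receptors measured were at or above 1 TPM in both cell lines, and they differed in how far the lines lay apart. For NOTCH1 (ENSG00000148400, chromosome 9 of GRCh38, 136494433 to 136546048), a receptor known for its part in epithelial fate choices, RC77 T/E cells held 8.55 times the level of MDA PCa 2b cells. Its level was 2.95 TPM in MDA PCa 2b against 25.2 TPM in RC77 T/E, or 29.5 and 252.3 TPM at the other position of the decimal mark. NOTCH3 (ENSG00000074181, chromosome 19, 15159038 to 15200995) was 2.51-fold higher in RC77 T/E. Its level was 4.31 TPM in MDA PCa 2b against 10.8 TPM in RC77 T/E, or 43.1 and 108.3 TPM. NOTCH2 (ENSG00000134250, chromosome 1, 119911553 to 120100779) was nearly level, at 18.4 TPM in MDA PCa 2b against 22.3 TPM in RC77 T/E, a ratio of 1.21. RC77 T/E was thus the higher library for each of the receptors, by amounts from 1.21 to 8.55 times.

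The order of the receptors is only partly settled. In RC77 T/E cells NOTCH1 lay above NOTCH2 at both positions of its decimal mark. In MDA PCa 2b cells NOTCH1 lay below NOTCH2 if its mark is at the lower position and above it if at the higher. The place of NOTCH3 is open in both cell lines. NOTCH2 has near-identical partial copies elsewhere on chromosome 1, the NOTCH2NL genes. The table holds 0 rows under that name, and how reads from the copies were assigned is not stated.

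**Figure D1:**
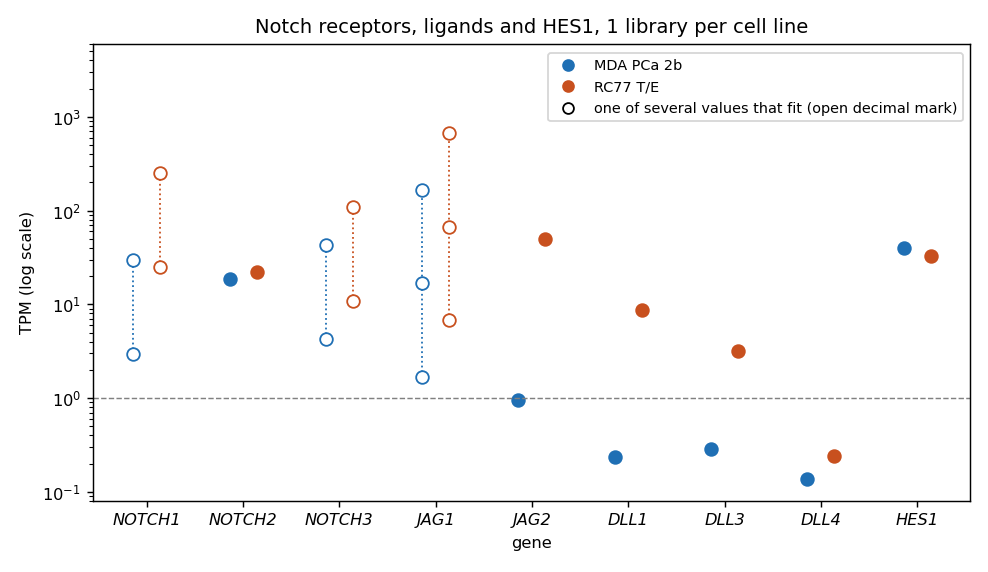
TPM on a log axis for the 9 genes with a row, with 1 point per cell line (blue, MDA PCa 2b; orange, RC77 T/E); open circles joined by a dotted line are the alternative values of one library where the decimal mark is open, and the dashed line is 1 TPM. JAG2, DLL1 and DLL3 lie below 1 TPM in MDA PCa 2b but above it in RC77 T/E, while NOTCH2 and HES1 lie close together in both.

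Among the ligands the differences ran from 1.74 times for DLL4 to 51.4 times for JAG2. JAG2 (ENSG00000184916, chromosome 14, 105140982 to 105168824), a Jagged ligand, was at 0.958 TPM in MDA PCa 2b against 49.2 TPM in RC77 T/E cells, so that only the RC77 T/E library reached 1 TPM. JAG1 (ENSG00000101384, chromosome 20, 10637684 to 10673999), the other Jagged ligand, was 4.03-fold higher in RC77 T/E. Its values are 1.68 and 6.76 TPM, 16.8 and 67.6 TPM, or 167.6 and 675.9 TPM, first in MDA PCa 2b, then in RC77 T/E. JAG1 was therefore at or above 1 TPM in both lines, and in MDA PCa 2b it lay above JAG2 at every position of the mark. In RC77 T/E the order of both Jagged genes is open.

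Of the Delta-like ligands, none reached 1 TPM in MDA PCa 2b cells. The study inferred their place on the PCa side of the Notch pair from tumor RNA-Seq of The Cancer Genome Atlas, a different kind of sample from these cell lines. It also reported worse survival of patients with high Delta-like ligand expression, and compared its general findings with a separate tumor cohort measured on arrays. DLL1 (ENSG00000198719, chromosome 6, 170282206 to 170306565), which activates Notch on neighboring cells, was at 0.233 TPM in MDA PCa 2b against 8.78 TPM in RC77 T/E, 37.7 times as high. DLL3 (ENSG00000090932, chromosome 19, 39498895 to 39508481) is a divergent family member that stays largely inside the cell and is known as a surface antigen of neuroendocrine tumors. It was at 0.288 TPM in MDA PCa 2b against 3.17 TPM in RC77 T/E, 11.0 times as high. DLL4 (ENSG00000128917, chromosome 15, 40929340 to 40939073), the ligand of growing blood vessels, stayed under 1 TPM in both, at 0.137 and 0.238 TPM. Within RC77 T/E the order was DLL1, DLL3, DLL4 and within MDA PCa 2b it was DLL3, DLL1, DLL4. No spread over replicates is at hand to say which of these neighbors differ.

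The 4 ligands with a fixed decimal mark summed to 1.62 TPM in MDA PCa 2b against 61.4 TPM in RC77 T/E cells, a ratio of 38.0. JAG2 made up 59.3% of that sum in MDA PCa 2b against 80.1% in RC77 T/E. With JAG1 added, the sum was 3.29 and 68.2 TPM at its lowest position and 169.2 and 737.3 TPM at its highest, so the ratio fell to between 20.7 and 4.36 and the largest share depends on the open mark of JAG1. The 3 Delta-like ligands alone summed to 0.659 and 12.2 TPM.

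HES1 (ENSG00000114315, chromosome 3, 194136148 to 194138732) was the one gene of the set that was higher in MDA PCa 2b. It was at 40.0 TPM in MDA PCa 2b against 32.4 TPM in RC77 T/E cells, a ratio of 1.23, with the decimal mark fixed. In MDA PCa 2b cells HES1 was thus 2.18 times as high as NOTCH2 and 41.8 times as high as JAG2. In RC77 T/E cells JAG2 was 1.52 times as high as HES1. HES1 was thus nearly level between the libraries, while ligand and NOTCH1 transcripts were higher in RC77 T/E. A link between them was not tested.

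On the log2 scale with a pseudocount of 1 TPM, which understates the change of low genes, the difference (RC77 T/E over MDA PCa 2b) was 4.68 for JAG2, 2.99 for DLL1, 2.73 for NOTCH1, 1.70 for DLL3, 1.54 for JAG1 and 1.16 for NOTCH3. It was 0.26 for NOTCH2, 0.12 for DLL4 and -0.30 for HES1. The median over the 11624 genes averaging 1 TPM and above, the level the study asked of an expressed gene, was -0.15. Relative to that median the differences were 4.83 for JAG2, 2.88 for NOTCH1, 0.42 for NOTCH2 and -0.14 for HES1. Of the 11624 expressed genes, 232 had a higher log2 difference than JAG2, 624 than DLL1 and 731 than NOTCH1, with open decimal marks at their lowest position. HES1 lay at percentile 44.9 and NOTCH2 at 64.4, in the middle of the distribution.

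At a mean of 1 TPM and above, 8 of the 9 genes entered this comparison, with DLL4 left out as too low. Of these, 6 were higher by 2-fold or more in RC77 T/E against 0 in MDA PCa 2b. Among all expressed genes 19.4% were higher by 2-fold or more in RC77 T/E, 20.0% in MDA PCa 2b and 39.3% in either. Of those genes 2-fold apart, 49.2% were higher in RC77 T/E, and the share was 57.5% after centring on the median and 56.6% after scaling to the upper quartile. On this log2 scale, with open marks at their lowest position, JAG2, DLL1 and NOTCH1 were higher by 4-fold or more in RC77 T/E, with 0 of the 8 in MDA PCa 2b, against 9.69% and 6.19% of expressed genes and 15.9% in either direction. The plain ratios of DLL3 and JAG1 also passed 4-fold, and on the log2 scale DLL3 reached 3.08 with a pseudocount of 0.1 TPM and JAG1 2.01 at its highest position. Among protein-coding genes alone, to which all the Notch genes belong, the 2-fold shares were 19.1% toward RC77 T/E, 19.7% toward MDA PCa 2b and 38.8% together. JAG2, DLL1 and DLL3 reached the mean of 1 TPM only through RC77 T/E, so the filter itself favored a difference in that direction, and the count is a description of this set. Of the 9 genes, 5 were at or above 1 TPM in MDA PCa 2b against 8 in RC77 T/E, beside 49.6% and 52.8% of all genes in the table and 57.9% and 61.7% of the protein-coding ones.

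**Figure D2:**
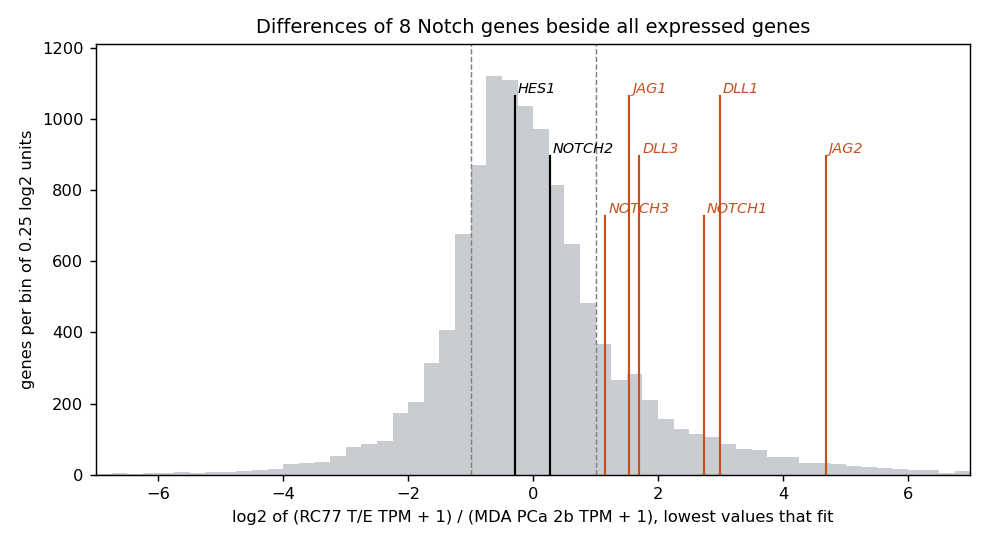
Histogram of the log2 difference between the cell lines for 11624 expressed genes (gray, bins of 0.25), with a line for each of the 8 Notch genes averaging 1 TPM and above (orange, higher by 2-fold or more in RC77 T/E; black, under 2-fold) and dashed lines at 2-fold. JAG2 lies farthest right at 4.68, and HES1 and NOTCH2 lie near the center; 43 genes below -7 and 72 above 7 lie outside the plot.

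The cell lines also differed in lineage markers. All 6 prostate basal markers (KRT5, KRT14, KRT15, TP63, ITGB4 and LAMB3) were higher by 4-fold or more in RC77 T/E. Among the luminal markers, KLK3 and HOXB13 were higher by 4-fold or more in MDA PCa 2b, and KRT8 and KRT18 were within 2-fold. KRT5 was at 0.00435 TPM in MDA PCa 2b against 4027 TPM in RC77 T/E, and KLK3, which encodes prostate-specific antigen, was at 5323 TPM in MDA PCa 2b but listed at 0 in RC77 T/E. The differences in JAG2, DLL1 and NOTCH1 run along with this lineage difference, and its part in them was not tested.

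Markers of other cells that express these genes were low. The 6 endothelial markers summed to 0.221 TPM in MDA PCa 2b against 0.0833 TPM in RC77 T/E, with TIE1 listed at 0 in both and CDH5 at 0.00455 and 0.00371 TPM. The 6 neuroendocrine markers summed to 0.748 and 0.743 TPM, and none of them reached 1 TPM in either line. The 5 platelet markers summed to 0.285 and 1.07 TPM, with PF4 and GP9 listed at 0 in both. Among the 5 stromal markers 1, COL1A1, passed 1 TPM, at 0.554 and 8.24 TPM, and the blood cell marker PTPRC was at 0.0113 TPM and listed at 0. Their part in the Notch values was not tested.

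Genes that overlap the set were looked up in GENCODE release 29. DLL1 shares 15863 bases with FAM120B on the opposite strand, which was at 9.09 TPM in MDA PCa 2b against 10.1 TPM in RC77 T/E, while DLL1 itself differed 37.7 times. The microRNA genes MIR4673 in NOTCH1, MIR6795 in NOTCH3, MIR6870 in JAG1 and MIR6765 in JAG2 are listed at 0 in both libraries. JAG2 also overlaps AL512356.1 on its own strand over 16631 bases, DLL1 overlaps AL078605.1 on its own strand over 500 bases, and NOTCH1 and JAG1 each overlap an antisense transcript. These transcripts were not analysed here. The libraries kept strand, but whether the TPM values used it is not stated. NOTCH2, DLL3, DLL4 and HES1 overlap no other gene in that release.

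The rest of the pathway held genes that differed in each direction. A list of 58 further Notch pathway genes, all with a row, held 51 with a mean of at least 1 TPM, of which 15 were higher by 2-fold or more in RC77 T/E, 9 higher by 2-fold or more in MDA PCa 2b, with 27 under 2-fold. The share 2-fold apart was 47.1%, beside 39.3% of all expressed genes, of which 19.4% were toward RC77 T/E and 20.0% toward MDA PCa 2b. The median log2 difference over these 51 genes was 0.21, beside -0.15 over all expressed genes. MFNG, MAML2, DTX4, HES7, DLK2, DNER, CNTN1 and TLE4 passed the filter on the mean only through RC77 T/E. MAML3 and TLE2 passed it only through MDA PCa 2b. The filter itself thus favored a difference in those directions, more often toward RC77 T/E, and the counts and the median are a description of this list. In MDA PCa 2b 43 of the 58 were at or above 1 TPM, and in RC77 T/E 49. The shares at that level were 49.6% and 52.8% over all genes in the table, and 57.9% and 61.7% over the protein-coding ones.

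**Figure D3:**
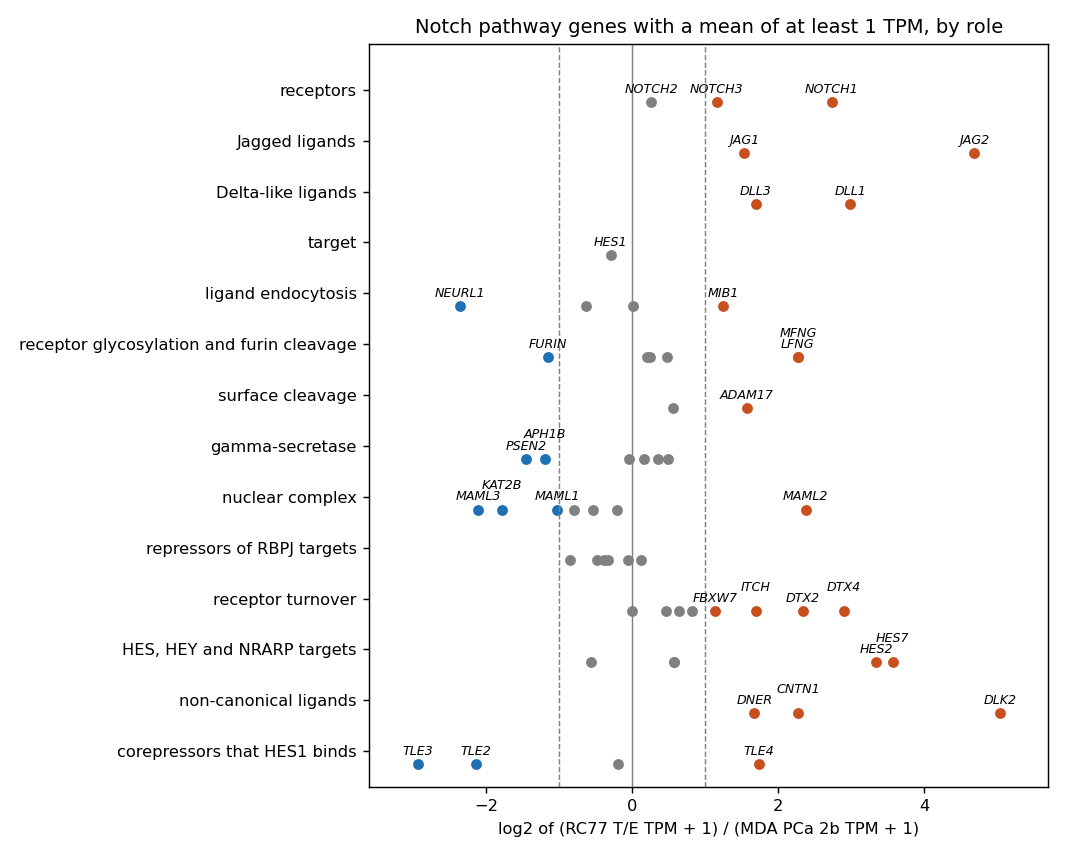
Log2 difference between the cell lines for each Notch gene with a mean of at least 1 TPM, in rows by role (orange, higher by 2-fold or more in RC77 T/E; blue, higher by 2-fold or more in MDA PCa 2b; gray, under 2-fold; dashed lines at 2-fold, open marks at their lowest position). The repressors of RBPJ targets stay inside the 2-fold lines, and the ligands shown lie to the right, but all of them except JAG1 passed the filter on the mean only through RC77 T/E.

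Ligands are activated by being pulled into the sending cell by the ubiquitin ligases of the Mindbomb and Neuralized families, and these differed in both directions. MIB1 was 2.56-fold higher in RC77 T/E, at 7.0 and 17.9 TPM or 70.0 and 179.3 TPM, while MIB2 was level at 11.2 and 11.3 TPM. NEURL1 was 8.18-fold higher in MDA PCa 2b, at 11.0 TPM there and 1.34 TPM in RC77 T/E, or 109.6 and 13.4 TPM. NEURL1B, its paralog, was at 3.81 and 2.10 TPM.

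The Fringe glycosyltransferases, which tune the receptor toward Delta-like or Jagged ligands, differed in how far the lines lay apart. MFNG was at 0.00565 TPM in MDA PCa 2b against 3.87 TPM in RC77 T/E cells, a log2 difference of 2.28. It passed the filter on the mean only through RC77 T/E. LFNG was 8.38-fold higher in RC77 T/E and at or above 1 TPM in both lines, at 1.07 and 8.94 TPM, 10.7 and 89.4 TPM or 106.6 and 893.6 TPM. RFNG, the third Fringe, was at 17.4 and 20.3 TPM. POFUT1 and POGLUT1, which place the first sugars on the receptor, were within 2-fold at 31.6 and 44.4 TPM and at 6.15 and 7.49 TPM. FURIN, the protease that processes the receptor on its way to the surface, was 2.62-fold higher in MDA PCa 2b.

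Of the proteases that cut the receptor at the surface, ADAM17 was 3.22 times and ADAM10 1.49 times as high in RC77 T/E. Within gamma-secretase, the PSENEN ratio was 1.03 and APH1A was at 91.4 and 102.3 TPM. The catalytic subunit PSEN2 was 3.04 times and the scaffold subunit APH1B 2.96 times as high in MDA PCa 2b, whereas APH1A, the paralog of APH1B, differed by 1.12 times the other way. PSEN2 and APH1B were the 2 of 6 subunit genes that lay 2-fold apart, 33.3% beside 39.3% of all expressed genes.

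In the nuclear complex, RBPJ itself was nearly level, at 14.7 TPM in MDA PCa 2b against 12.6 TPM in RC77 T/E or at 146.7 and 126.3 TPM. The Mastermind-like coactivators differed by paralog. MAML2 was at 0.00553 TPM in MDA PCa 2b against 4.23 TPM in RC77 T/E, MAML3 at 7.09 and 0.871 TPM, and MAML1 was 2.17-fold higher in MDA PCa 2b. Each line therefore had at least 1 TPM of 2 of the 3 coactivators, MAML1 being common to both. MAML2 passed the filter on the mean only through RC77 T/E, and MAML3 only through MDA PCa 2b. The acetyltransferase gene KAT2B was 5.29-fold higher in MDA PCa 2b, while EP300 and CREBBP were within 2-fold on the log2 scale used. The repressors of RBPJ targets SPEN, NCOR1, CIR1, HDAC1 and CTBP1 were under 2-fold on that scale, with log2 differences from -0.86 for CTBP1 to 0.13 for SPEN; without the pseudocount the CTBP1 ratio was 2.04.

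Of the genes that direct receptor turnover, 8 averaged 1 TPM and above. Of these, 4 were higher by 2-fold or more in RC77 T/E, and 0 were lower by as much. Their share of 50% stands beside 39.3% of all expressed genes 2-fold apart, or 19.4% counting only those higher in RC77 T/E. DTX4, an E3 ligase of the Deltex family, was at 0.716 TPM in MDA PCa 2b against 11.8 TPM in RC77 T/E, and DTX2 at 4.81 and 28.3 TPM. DTX4 passed the filter on the mean only through RC77 T/E. ITCH, a ligase that binds Notch, was 5.36 times and FBXW7, which marks the freed intracellular domain for destruction, 2.46 times as high in RC77 T/E. DTX1, often used as a Notch target gene, was at 0.00553 and 0.00566 TPM.

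The other HES, HEY and NRARP genes were listed by family, and only some of them are read as Notch targets. Those that stood at a high level did not all differ in the direction of the ligands. HES4 was at 60.0 TPM in MDA PCa 2b against 40.4 TPM in RC77 T/E, a ratio of 1.49 in the direction of HES1. NRARP, a feedback inhibitor of Notch, was 1.59-fold higher in RC77 T/E, at 5.22 and 8.29 TPM, 52.2 and 82.9 TPM or 521.8 and 828.6 TPM. HES6, which counteracts HES1, was 1.55-fold higher in RC77 T/E.

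Of the 5 genes of this list averaging 1 TPM, HES7 and HES2 lay 2-fold or more apart, a share of 40% that is close to the 39.3% of all expressed genes. HES7 was at 0.248 TPM in MDA PCa 2b against 13.8 TPM in RC77 T/E, 55.6 times as high. It passed the filter on the mean only through RC77 T/E, so that its direction was fixed by the filter. HES2 was 18.0-fold higher in RC77 T/E, at 1.17 and 21.0 TPM or 11.7 and 210.0 TPM. Both are family members without a match to the RBPJ motif in the windows searched. HES5, with 2 matches, is listed at 0 in MDA PCa 2b and was at 0.820 TPM in RC77 T/E. HEY1 was at 0.519 and 0.787 TPM, HEY2 at 0.00561 and 0.00683 TPM, and HEYL at 0.00521 TPM in MDA PCa 2b but listed at 0 in RC77 T/E. The HEY genes thus stayed under 1 TPM in both lines.

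**Figure D4:**
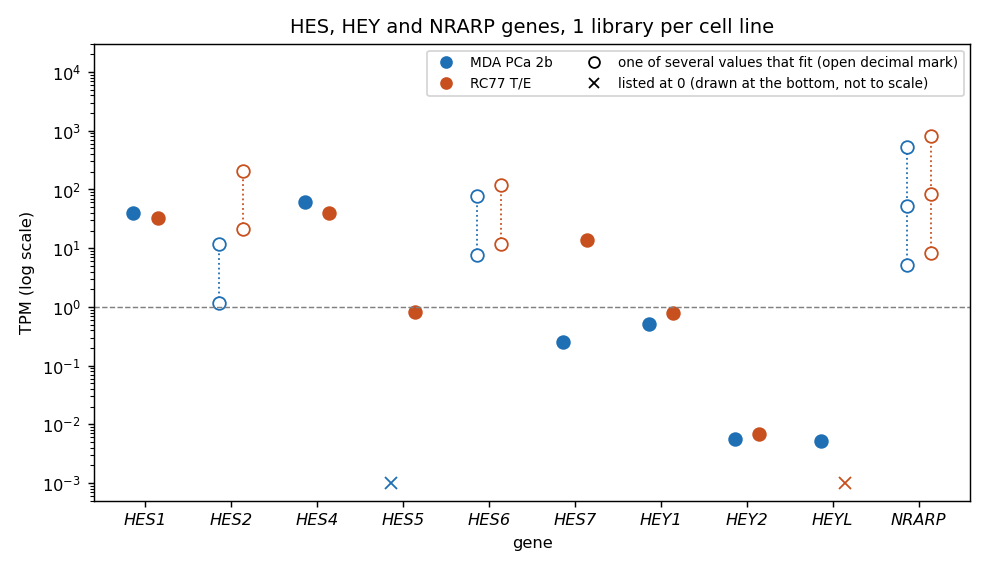
TPM on a log axis for HES1 and the other HES, HEY and NRARP genes, with 1 point per cell line (blue, MDA PCa 2b; orange, RC77 T/E; open circles, alternative values under an open decimal mark; crosses, listed at 0 and drawn at the bottom edge without scale; dashed line, 1 TPM). HES1 and HES4 are high in both lines and slightly higher in MDA PCa 2b, and HES7 lies below 1 TPM in MDA PCa 2b only.

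Non-canonical ligands, which lack the domain by which Jagged and Delta-like proteins activate Notch, averaged 1 TPM in 3 of 5 cases, DLK2, DNER and CNTN1, each only through RC77 T/E, so that their direction was fixed by the filter. DLK2 was at 0.358 TPM in MDA PCa 2b against 43.8 TPM in RC77 T/E cells, a log2 difference of 5.04. DNER and CNTN1 are listed at 0 in MDA PCa 2b and were at or above 1 TPM in RC77 T/E, with 3 fitting values each, the lowest being 2.19 and 3.82 TPM. DLK1 was at 0.00650 TPM in MDA PCa 2b but listed at 0 in RC77 T/E, and CNTN6 is listed at 0 in both.

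HES1 represses its own targets through corepressors of the TLE family. Of the 4 genes, 2 were lower by 2-fold or more in RC77 T/E and 1 was higher by as much. The share of 75% stands beside 39.3% of all expressed genes, of which 20.0% were lower and 19.4% higher in RC77 T/E. TLE3 was 8.85-fold higher in MDA PCa 2b, at 48.5 TPM there and 5.49 TPM in RC77 T/E or at 485.2 and 54.9 TPM. TLE2 was at 7.34 and 0.901 TPM, and TLE4 differed the other way, at 0.548 and 4.15 TPM. Each of TLE2 and TLE4 passed the filter on the mean through only 1 of the lines. TLE1 was within 2-fold, at 10.7 and 9.26 TPM.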

How the data were processed

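The authors isolated total RNA from 1 culture sample per cell line, made directional paired-end libraries and deposited TPM per locus, with the mean and standard error over both lines, Ensembl identifiers and GRCh38 positions. The submitters' processing notes name CASAVA, FastQC 0.11.9, Trimmomatic 0.38 and Salmon 1.2.0, without their order. Both columns of values per sample were used. The design had assumed plain TPM values, but where a deposited value was not under 1 TPM and had 3 decimals or more, its decimal mark was lost. The mark was placed after 1, 2 or 3 digits, leaving no fewer than 3, and a pair was kept if its mean and standard error, written out, were those deposited. Of 22791 rows, 16284 had 1 position and 6507 had 2 or 3. The lowest position was used for sums, ratios and counts unless stated. The step was tested on simulated data.

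The table held 22704 distinct loci, and those of one symbol were summed. Expressed meant a mean of at least 1 TPM, and a difference was counted from 2-fold, on log2 of TPM plus 1. With 1 library per line no test was made. The genes and lists were chosen with earlier results of these data known. Named are the members, list genes at least 4-fold apart and their paralogs, and others of the lists chosen after their values were seen; some list genes are counted but not reported here by name. With 2 libraries the correlation of any pair of genes is void, so no gene was named for a similar pattern. Promoters are from RefSeq on GRCh38.p14, whose table held 7 of the 9 members. Python 3.11.15 with matplotlib 3.10.9 was used.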

Additional observations from a re-analysis of the deposited data

How the results depend on the processing

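The count of 6 Notch genes higher by 2-fold or more in RC77 T/E, and of 0 in MDA PCa 2b, was the same with a pseudocount of 0.1 TPM, after centring on the median, after scaling to the upper quartile, without the filter on the mean and with open decimal marks at their highest position. In MDA PCa 2b the number of genes reaching the 1 TPM threshold was 6 at a threshold of 0.5 TPM and 2 at 5 TPM, in place of 5; at 5 TPM it was again 5 with open marks at their highest position, so the fall rests on NOTCH1, NOTCH3 and JAG1. In RC77 T/E it was 8, or 7 at 5 TPM. No log2 difference of the 9 genes changed sign. A pseudocount of 0.1 TPM moved 3 of them by more than 1.5 times, DLL1 to 4.74, DLL3 to 3.08 and DLL4 to 0.51. Centring moved NOTCH2, DLL4 and HES1, all small values, and the highest positions moved none. Using the largest locus instead of summed loci could change nothing, since each of the 9 genes has 1 locus. Adding NOTCH2NL rows was not run because there are 0. The counts for the 58 pathway genes stayed within 1.5 times under each alternative run. No paired analysis was possible because there is 1 library of each line. Depth is unknown, so no detection limit can be given for values near 0.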
